A study of Mus musculus with 8 samples.

Results

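Hyaluronan and scavenger receptors were read in endothelial cells of the normal mouse colon. The set was 9 genes (Lyve1, Stab1, Stab2, Mrc1, Cd44, Hyal1, Hyal2, Has2 and Msr1), each by every probe set whose annotation names that gene alone. That gave 16 probe sets of 8 genes, out of 45037 probe sets that are not controls and 18193 named genes. Both probe sets annotated to Hyal1 also name a neighbouring gene, so Hyal1 has no value here. Lymphatic endothelial cells (LEC) and blood vascular endothelial cells (BEC) were sorted by flow cytometry from the colons of 4 healthy C57BL/6J mice aged 8 weeks, 3 female and 1 male, which gave 4 arrays of each cell type and 8 in all. Neither group was treated, and no allele is named for either. The pairs were selected on the quality of RNA and amplified cDNA, which limits how far they stand for all colons. The antibodies were to CD31, podoplanin and CD45.2, and the sources used here do not give the gates.

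Hyaluronan is a long glycosaminoglycan of the tissue matrix. It is made at the cell surface by synthases such as HAS2, cut into fragments by hyaluronidases such as HYAL1 and HYAL2, and drained from tissue through lymph. LYVE1 and CD44 bind it through a link domain. STAB2 is a main clearance receptor for hyaluronan in liver sinusoids, and its relative STAB1 takes up other ligands, such as modified lipoproteins and SPARC. MRC1, the mannose receptor, and MSR1, the class A scavenger receptor, take up glycoproteins and modified lipoproteins and are best known from macrophages. LYVE1, STAB1, MRC1 and CD44 occur on some macrophages too, so leukocyte markers were read beside them.

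All values are log2 MAS5 signals as deposited, in which 1 unit is a doubling. Each array has its own background level, read from its Bacillus subtilis controls, which lay between 3.43 and 4.88. In each mouse the level was higher on the LEC array. For mice 1 to 4 it was 4.88, 4.32, 3.83 and 4.01 in LEC and 4.52, 3.43, 3.43 and 3.43 in BEC. Levels of different probe sets are not compared, since each probe set has its own brightness. The 8 pan-endothelial markers were above background on every array. The list means of the lymphatic markers were 12.29 to 12.80 in LEC and 5.19 to 6.28 in BEC, and those of the blood endothelial markers were 5.45 to 6.73 in LEC and 10.99 to 11.67 in BEC. The pan-endothelial list holds Pecam1 (CD31) and the lymphatic list Pdpn (podoplanin). Both encode antigens of the sort, so these genes are no independent check of it. Epithelial markers stood highest in BEC replicate 3 (list mean 10.35), LEC replicate 3 (9.26) and BEC replicate 4 (8.04), against 4.90 to 5.37 on the other arrays. The mean of the fibroblast and mural list stood highest in LEC replicates 2 (8.04) and 4 (6.77), against 4.01 to 5.02 elsewhere. Of its 11 tested genes 8 were higher in LEC by mean. The mural genes Rgs5 and Acta2 went the other way, at 9.04 to 10.04 and 6.45 to 7.89 in BEC. In LEC they read -0.97 to 5.55 and 3.39 to 5.88. Within bulk RNA, fewer cells of a type and less RNA per cell cannot be told apart.

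**Figure D1:**
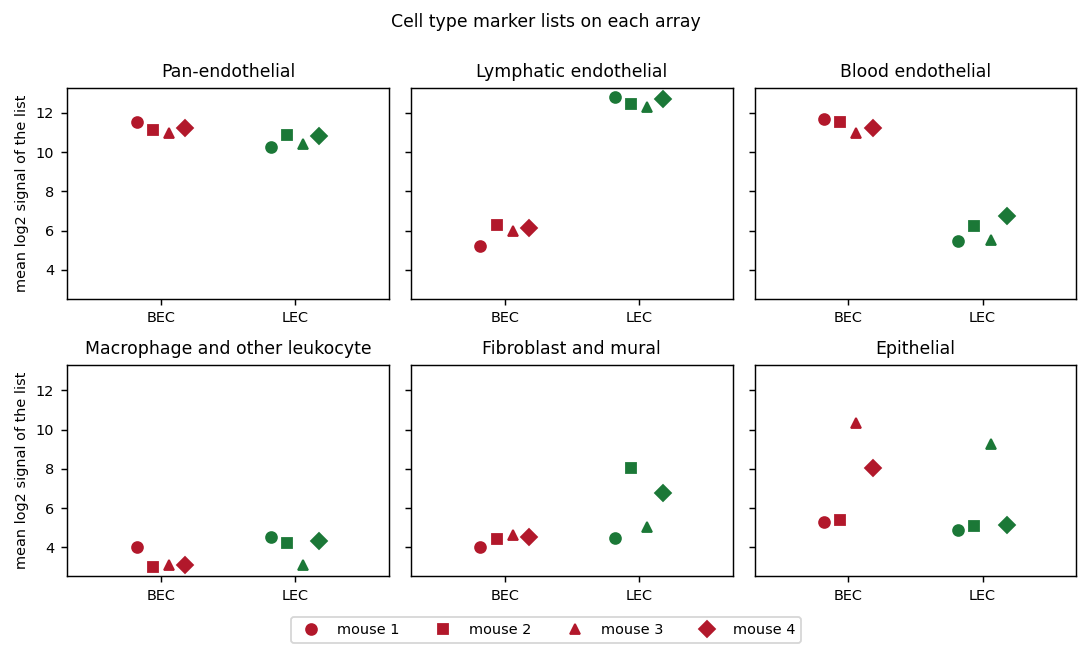
Mean log2 signal of 6 cell type marker lists (y axis) on each of the 4 BEC and 4 LEC arrays (x axis), 1 symbol per mouse. The lymphatic and blood endothelial lists separate the cell types by label, whereas the epithelial list reaches 10.35 in BEC of mouse 3 and the fibroblast and mural list 8.04 in LEC of mouse 2.

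Lyve1, Stab1 and Mrc1 were higher in LEC than in BEC, and no gene of the set was called lower. Of the 8 genes, all of which passed the filter on dim probe sets through at least 1 probe set, 3 were called higher and 0 lower at an adjusted p under 0.05 (limma, Benjamini-Hochberg adjustment over 13259 genes), where 4.07% of all genes tested were called, 1.76% higher and 2.31% lower. At an unadjusted p under 0.05 the counts were the same, 3 higher and 0 lower. Of the 16 probe sets 12 passed the filter, and 4 of these were called higher and 0 lower, where 3.31% of all 28838 probe sets tested were called, 1.47% higher and 1.84% lower. The median difference (LEC minus BEC) was 1.60 over the 8 genes and 0.08 over all genes. The groups did not overlap, with LEC above BEC, at 6 of the 12 probe sets tested, and 4.72% of all tested probe sets were separated in that direction. Differences, standard errors and adjusted p-values of member probe sets below come from the limma fit of every probe set.

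**Figure D2:**
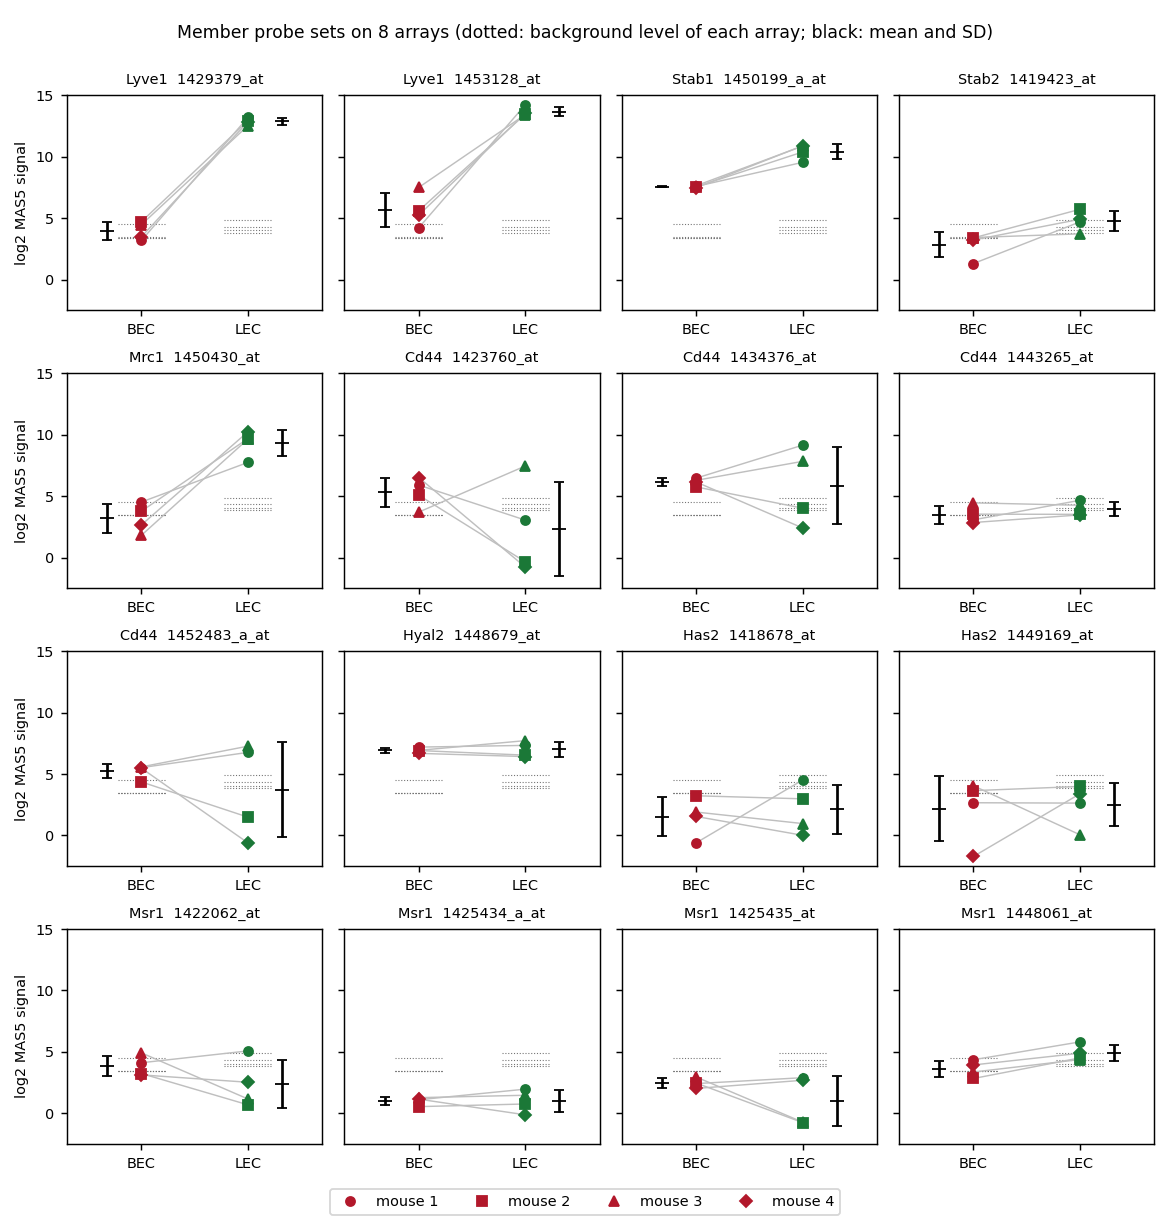
Log2 MAS5 signal (y axis) of each of the 16 probe sets in BEC and LEC (x axis), with lines joining the 2 arrays of a mouse, dotted lines at the background level of each array, and black marks at the mean with SD (n = 4). Both Lyve1 probe sets, Stab1, Mrc1, Stab2 and 1 Msr1 probe set have all LEC values above all BEC values, and the Cd44 values of LEC spread widely.

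Lyve1, the lymphatic hyaluronan receptor, gave the widest separation of the set on both of its probe sets. On probe set 1453128_at the LEC arrays read 14.23, 13.48, 13.44 and 13.53 in replicates 1 to 4, and the BEC arrays 4.23, 5.62, 7.51 and 5.27. On probe set 1429379_at the LEC arrays read 13.21, 12.94, 12.54 and 12.85, and the BEC arrays 3.19, 4.73, 4.48 and 3.50. LEC replicate 1 was the highest LEC array on both probe sets, and no LEC value came near a BEC value. The difference was 8.02 ± 0.58 (SE, adjusted p = 6.38e-06) for 1453128_at and 8.91 ± 0.51 (adjusted p = 1.35e-06) for 1429379_at, higher in LEC in 4 of 4 mice for both.

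BEC replicate 1 lay under its background on both Lyve1 probe sets, while the other 3 BEC arrays lay above theirs. A ratio whose dimmer group has an array under background is given as a lower bound, with such values raised to the background level before averaging. By that bound Lyve1 was at least 383-fold higher in LEC on 1429379_at and at least 246-fold on 1453128_at. BEC replicate 3, at 7.51, moved the second bound most, to 372-fold without it. That array also had the highest epithelial list mean, and the part of this in the Lyve1 value was not tested. Its reading on 1429379_at, 4.48, lay within the range of the other BEC arrays. Without the 3 arrays of high epithelial signal the differences were 8.83 (adjusted p = 1.74e-04) and 9.04 (adjusted p = 1.74e-04), from 3 LEC and 2 BEC arrays.

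Stab1, which encodes stabilin 1, was bright in both cell types and higher in LEC. Its only probe set read 9.55, 10.39, 10.88 and 10.90 in LEC and 7.59, 7.56, 7.65 and 7.49 in BEC. The 4 BEC values spanned 0.156 units with an SD of 0.07, and 0.0659% of all tested probe sets had a smaller SD in BEC, while every LEC array lay above them. The difference was 2.86 ± 0.45 (SE, adjusted p = 0.00200), a 7.25-fold ratio with all 8 arrays above background, and LEC was higher in 4 of 4 mice by 1.96 to 3.41 units. LEC replicate 1 was the lowest LEC array. The call was lost with arrays scaled to equal hybridisation controls (difference 2.47, adjusted p = 0.0599), without the 3 arrays of high epithelial signal (2.71, adjusted p = 0.0849) and without the 2 LEC arrays of high fibroblast signal (2.64, adjusted p = 0.0599).

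Stab2, the paralogue that clears hyaluronan in liver sinusoids, was near background. It read 4.70, 5.73, 3.73 and 4.92 in LEC and 1.31, 3.40, 3.43 and 3.23 in BEC. Only LEC replicates 2 and 4 and BEC replicate 3 were above the background of their arrays. LEC was higher in 4 of 4 mice and the groups did not overlap, but the difference of 1.93 ± 0.92 (SE) missed the threshold (adjusted p = 0.40, 0.263 to 0.717 over its alternatives, 95% interval -0.06 to 3.91). The LEC array also had the higher background in each mouse, and the part of this in the order was not tested. With values under background raised to it in both groups, the difference was 1.14, with an adjusted p of 0.263. It is no lower bound, since LEC values were raised too and LEC backgrounds were higher. Raised in the same way, Has2 on 1418678_at, under background on every array, gave a difference of 0.56.

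Mrc1, the mannose receptor gene, was higher in LEC. Its probe set read 7.75, 9.69, 9.65 and 10.24 in LEC and 4.52, 3.78, 1.82 and 2.66 in BEC. All LEC arrays were above background, whereas BEC replicates 3 and 4 were under it and BEC replicate 1 was at it, both at 4.52. The difference was 6.13 ± 0.80 (SE, adjusted p = 5.60e-04), at least 46.5-fold, and was seen in 4 of 4 mice at 3.22, 5.91, 7.83 and 7.58 units for mice 1 to 4. As for Stab1, LEC replicate 1 was the lowest LEC array, while it was the highest for Lyve1. Without it the bound was 67.0-fold.

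**Figure D3:**
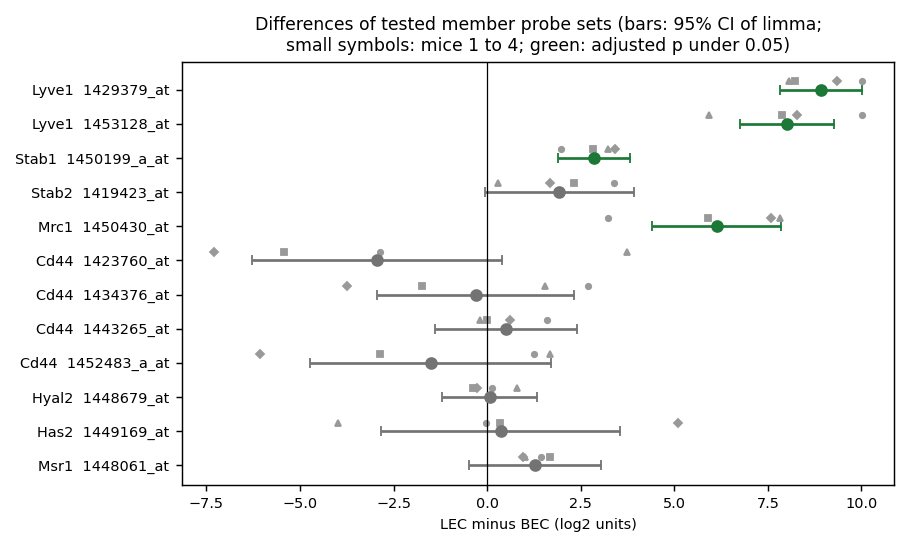
Difference LEC minus BEC in log2 units (x axis) for the 12 member probe sets that passed the filter (y axis), with the 95% interval of the limma fit of every probe set and the difference in each mouse as a small symbol. The Lyve1, Stab1 and Mrc1 probe sets, in green, lie at 2.86 or above, and the other intervals include 0.

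Because several of these receptors also occur on macrophages, a list of 25 macrophage and other leukocyte genes was read beside them. Of these 16 were tested and 0 were called in either direction by limma, where 4.07% of all genes were called, so a list of this length tells little by its calls. The median difference was 0.59, against 0.08 over all genes, with 12 of 16 above 0, and at an unadjusted p under 0.05 the counts were 2 higher and 0 lower. Between 10 and 14 of them were above background on an LEC array and between 11 and 15 on a BEC array, and the summed linear signal of the list ran from 981 to 1726 in LEC and from 806 to 2247 in BEC. The complement gene C1qa, the sialoadhesin gene Siglec1 and the chemokine receptor gene Ccr2 were under background on all 8 arrays. Others of the list were detected. C1qb was above background on 2 LEC and 4 BEC arrays, Laptm5 on 3 and 4, Spi1 on 4 and 3, and Ctss and Mertk on all 8 arrays. Ctss read 10.65 in BEC replicate 3, the array with the highest summed signal (2247). Csf1r, the receptor of macrophage growth factor, was above background on 1 LEC and 3 BEC arrays. Ptprc, which encodes the leukocyte antigen CD45, was above it on 1 LEC and 2 BEC arrays. An antibody to CD45.2 was part of the sort, so Ptprc is no independent measure of leukocytes. The macrophage antigen gene Adgre1 (F4/80) read 4.43 to 5.45 in LEC and -1.09 to 3.58 in BEC (difference 3.30, limma adjusted p = 0.167, higher in 4 of 4 mice), above background on 4 LEC arrays and 1 BEC array. F13a1, a coagulation factor subunit made by macrophages, read 3.10, 6.84, 5.37 and 6.78 in LEC and 3.94, 1.14, 1.78 and 3.70 in BEC (difference 2.88, adjusted p = 0.198), and its lowest LEC array was replicate 1, as for Mrc1 and Stab1. The lysozyme gene Lyz2 (difference 1.76, adjusted p = 0.383) and the lysosomal gene Cd68 (difference 1.08, adjusted p = 0.647) were each higher in LEC in 4 of 4 mice without passing the test. The list mean was 4.51, 4.23, 3.08 and 4.33 in LEC replicates 1 to 4 and ran from 3.02 to 4.02 in BEC. LEC replicate 1, the lowest LEC array for F13a1, Mrc1 and Stab1, was thus the highest for the list mean. That mean lay under the background of the array (4.88), which was the highest of all 8 arrays. By genes above background LEC replicate 1 had 12, against 14, 10 and 13 in LEC replicates 2 to 4. LEC replicate 1 was also the highest LEC array for Adgre1 and Cd68 (5.45 each). The part of leukocytes in the 3 differences was not tested.

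Upstream sequence, from RefSeq on the build GRCm38.p6, was matched for 6 of the 9 genes, all but Lyve1, Has2 and Msr1. The 250 bases before the annotated start are shown for Stab1 and Mrc1, which were both higher in LEC, and for Stab2, the relative of Stab1 whose signal stayed near background. Capitals mark matches, on either strand, to any of 5 short motifs: the ETS core GGAAG, the MAF half-site TGCTGAC, the GATA motif AGATAA, the nuclear receptor half-site AGGTCA and the TATA box TATAAA.
Stab1 chr14:31168642-31168891 (- strand): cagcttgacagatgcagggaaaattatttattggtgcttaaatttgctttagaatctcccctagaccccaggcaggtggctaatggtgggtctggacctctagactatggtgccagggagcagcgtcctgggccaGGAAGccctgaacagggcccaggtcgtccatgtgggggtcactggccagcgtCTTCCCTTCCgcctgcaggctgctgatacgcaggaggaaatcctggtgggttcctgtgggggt
Stab2 chr10:87007943-87008192 (- strand): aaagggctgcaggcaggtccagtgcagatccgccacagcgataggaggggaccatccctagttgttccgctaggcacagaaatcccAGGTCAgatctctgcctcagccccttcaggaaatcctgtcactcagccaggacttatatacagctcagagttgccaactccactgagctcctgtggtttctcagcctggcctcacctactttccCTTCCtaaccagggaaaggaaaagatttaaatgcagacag
Mrc1 chr2:14229164-14229413 (+ strand): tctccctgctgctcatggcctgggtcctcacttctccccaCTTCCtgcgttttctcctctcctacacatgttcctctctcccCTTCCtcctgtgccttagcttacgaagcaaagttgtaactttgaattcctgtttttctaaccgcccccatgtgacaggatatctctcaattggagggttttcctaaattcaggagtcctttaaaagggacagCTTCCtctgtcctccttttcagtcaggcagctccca

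Stab1 and Mrc1 each hold 3 matches to the ETS core and none to the other 4 motifs, and the matches lie 115, 63 and 58 bases before the start of Stab1 and 210, 168 and 36 bases before that of Mrc1. Stab2 holds 1 ETS core match and 1 nuclear receptor half-site, which lie 40 and 164 bases before its start. Of all 32851 upstream windows of this length, 64.1% hold the ETS core, 14.0% the nuclear receptor half-site, 12.4% the TATA box, 9.99% the GATA motif and 3.81% the MAF half-site. Cd44 holds 4 ETS core matches and 1 GATA motif, and Hyal1 and Hyal2 hold 1 ETS core match each. The matches are a description of letters only.

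Cd44, the widely expressed hyaluronan receptor, was not called in either direction and varied widely among the LEC arrays. On 1434376_at, its brightest probe set by mean, LEC replicates 1 to 4 read 9.15, 4.02, 7.83 and 2.41, and BEC replicates 1 to 4 read 6.46, 5.75, 6.29 and 6.15. LEC replicates 1 and 3 lay above all BEC arrays, and LEC replicates 2 and 4 lay below all BEC arrays and under their own background. The SD was 3.16 in LEC and 0.30 in BEC, and 97.7% of all tested probe sets had a smaller SD in LEC. The difference was -0.31 ± 1.22 (SE, adjusted p = 0.949, 95% interval -2.93 to 2.31), with LEC higher in 2 of 4 mice.

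A wide spread of the LEC arrays was also seen on 1452483_a_at (SD 3.90) and 1423760_at (SD 3.81), and the first showed the same split of arrays. On 1452483_a_at the LEC arrays read 6.76, 1.49, 7.27 and -0.61, and the BEC arrays 5.52, 4.35, 5.58 and 5.47 (difference -1.50 ± 1.50, adjusted p = 0.747). On 1423760_at the LEC arrays read 3.05, -0.35, 7.45 and -0.78, and the BEC arrays 5.90, 5.07, 3.70 and 6.52 (difference -2.95 ± 1.55, adjusted p = 0.462). The dim probe set 1443265_at ran from 2.85 to 4.66 over the 8 arrays (difference 0.50 ± 0.88, adjusted p = 0.879). On 1423760_at and 1443265_at a single LEC array, replicate 3, was above background, so the order of the other LEC arrays there is that of background signals. On 1434376_at and 1452483_a_at LEC replicates 1 and 3 were above background and LEC replicates 2 and 4 under it, though probe sets of 1 gene on the same arrays are no independent repeats.

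Markers of other cells moved with part of this split. The arrays with low Cd44, LEC replicates 2 and 4, had the highest fibroblast and mural list means (8.04 and 6.77, against 4.47 and 5.02 in LEC replicates 1 and 3). Within LEC the mural genes Rgs5 and Acta2 were highest in replicate 2 but lowest in replicate 4, where Pdgfrb was highest (6.16). The epithelial list mean was high in LEC replicate 3 (9.26) but 4.90 in LEC replicate 1, the array with the highest value on 1434376_at. The part of these cells in the Cd44 values was not tested. Without LEC replicates 2 and 4 the difference on 1434376_at was 2.33, still not called (adjusted p = 0.207).

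**Figure D4:**
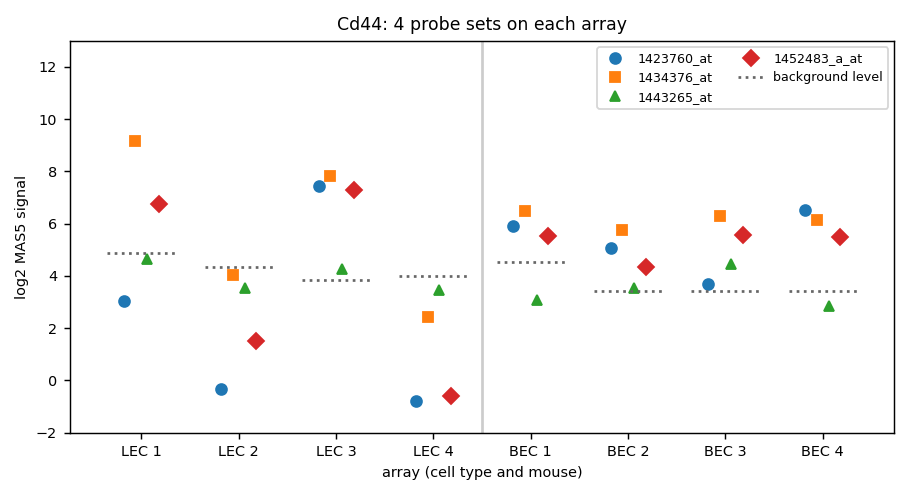
Log2 MAS5 signal (y axis) of the 4 Cd44 probe sets on each array (x axis), with the background level of the array as a dotted line. LEC arrays 1 and 3 reach 9.15 and 7.83 on 1434376_at and LEC arrays 2 and 4 fall to 4.02 and 2.41, while the 4 BEC arrays stay between 5.75 and 6.46.

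The enzymes of hyaluronan turnover in the set were not called in either direction. Hyal2, which encodes a hyaluronidase anchored at the cell surface, was above background on all 8 arrays, at 7.33, 6.54, 7.72 and 6.42 in LEC and 7.19, 6.91, 6.93 and 6.68 in BEC. The BEC range lay within the LEC range, with a difference of 0.07 ± 0.59 (SE, adjusted p = 0.977, 95% interval -1.20 to 1.34), and its sign turned when arrays were scaled to equal medians (-0.20) or to equal hybridisation controls (-0.31). Has2, a hyaluronan synthase gene, was under background on all 8 arrays on 1418678_at, which ran from -0.60 to 4.51 and was not tested. On 1449169_at it read 2.63, 3.99, 0.05 and 3.39 in LEC and 2.66, 3.64, 4.04 and -1.71 in BEC, above background in BEC replicates 2 and 3 only. The groups overlapped, and the difference was 0.36 ± 1.49 (SE, adjusted p = 0.952, 95% interval -2.84 to 3.56).

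Msr1, the class A scavenger receptor gene, was dim on all 4 of its probe sets. On 1448061_at the LEC arrays read 5.81, 4.51, 4.38 and 4.89, all above background, and the BEC arrays 4.36, 2.83, 3.36 and 3.94, of which replicate 4 was above background. LEC was higher in 4 of 4 mice without overlap, but the difference of 1.28 ± 0.82 (SE) missed the threshold (adjusted p = 0.570, 95% interval -0.49 to 3.04). As for Stab2, the part of the higher LEC background in this order was not tested. Probe sets 1425434_a_at and 1425435_at were under background on every array and 1422062_at was above it on LEC replicate 1 and BEC replicate 3 alone, and none of these 3 passed the filter. On 1422062_at and 1425435_at the group mean was lower in LEC, by signals that are mostly background.

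Among the other genes of the hyaluronan system, only Itih3 was called higher and only Tlr4 lower in LEC. Both calls were lost under some alternatives. Of 38 further genes for hyaluronan synthesis, precursor supply, matrix binding and breakdown, 37 had a named probe set and 27 passed the filter. In the limma fit of 1 probe set per gene, 1 was called higher in LEC, 1 lower and 25 were not called, where 1.76% of all genes were called higher and 2.31% lower. The median difference was 0.24 against 0.08 over all genes, 20 of 27 lay above 0, and at an unadjusted p under 0.05 the counts were 2 higher and 1 lower. The synthase genes Has1 and Has3 differed by 0.22 (adjusted p = 0.949) and -0.65 (adjusted p = 0.813), and Cemip2, a cell surface protein of hyaluronan breakdown, read 8.09 to 10.50 in LEC and 7.73 to 9.20 in BEC (difference 0.64, adjusted p = 0.677). Layn, which encodes the hyaluronan-binding lectin layilin, was above background on all arrays (difference 0.14, adjusted p = 0.960), as was Hexa, a lysosomal hexosaminidase subunit (difference 0.55, adjusted p = 0.562). Larger differences that missed the threshold included Itih5, a relative of Itih3 (difference 1.74, adjusted p = 0.224, higher in 3 of 4 mice), and Ptx3, which encodes a pentraxin of the hyaluronan matrix (difference 2.24, adjusted p = 0.414, higher in 4 of 4 mice). Ptx3 read 8.28 in LEC replicate 3, an array of high epithelial signal, and 3.24 to 4.33 on the other LEC arrays. In mouse 1 both Ptx3 values (3.24 in LEC and 3.16 in BEC) were under background.

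Itih3, a heavy chain of the inter-alpha-trypsin inhibitor family that can be bound to hyaluronan, read 5.87, 8.09, 6.93 and 7.89 in LEC and 4.59, 3.90, 1.77 and 4.55 in BEC. It was at least 8.45-fold higher in LEC (limma, adjusted p = 0.0330), in 4 of 4 mice, but the call was lost under 11 of 20 alternatives, with an adjusted p of up to 0.320. Those 11 included scaling to equal medians or to equal hybridisation controls, and leaving out any single array except LEC replicate 1 or BEC replicate 1. Tlr4, the endotoxin receptor gene, whose protein has been linked to hyaluronan fragments, read 0.86, 1.09, 6.36 and -1.28 in LEC and 7.65, 8.72, 7.78 and 8.64 in BEC. All BEC values were above all LEC values, and the ratio of BEC to LEC was at least 9.90-fold (limma, adjusted p = 0.0109). LEC replicate 3 stood apart from the other LEC arrays, and that array also had high epithelial signal, whose part in the value was not tested. The Tlr4 call was lost without the 2 LEC arrays of high fibroblast signal and with the mean of all probe sets (adjusted p = 0.0978 to 0.144), and the 2 other tested Tlr4 probe sets were not called (differences -3.70 and -1.21).

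Other scavenger receptors went in both directions. Of 27 genes, 15 passed the filter, of which 1 was called higher in LEC, 3 lower and 11 not called, where 1.76% of all genes were called higher and 2.31% lower. The median difference was -0.28, against 0.08 over all genes. Cd36, the class B scavenger receptor that takes up fatty acids and modified lipoproteins, read 4.82, 7.80, 7.37 and 9.72 in LEC and 13.13, 12.93, 12.49 and 12.75 in BEC. LEC lay at least 41.7-fold below BEC (limma, adjusted p = 7.79e-04), or 23.1-fold without LEC replicate 1 and 70.5-fold without LEC replicate 4. Its other probe sets gave differences of -6.86 and -7.23, both called.

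Scarb1, the class B receptor for high-density lipoprotein, read 4.79, 5.35, 4.72 and 4.88 in LEC and 9.54, 10.30, 9.78 and 10.34 in BEC. All LEC values lay well below all BEC values, at least 32.8-fold lower (limma, adjusted p = 9.73e-05), and both other probe sets were called in the same direction (-6.27 and -6.23). Scara3, a class A-like receptor gene, was under background on all LEC arrays and read 6.74, 5.18, 6.42 and 4.63 in BEC, with BEC at least 2.79-fold above LEC (limma, adjusted p = 0.0182). The Scara3 call was lost under 6 of 19 alternatives (adjusted p = 0.050 to 0.252), the replicate block among them.

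Colec12, a collectin scavenger receptor of endothelium, was the gene of this list that was called higher in LEC. It read 7.05, 7.20, 6.20 and 6.44 in LEC and 2.99, 4.34, 2.55 and 3.19 in BEC, at least 6.92-fold higher in LEC in 4 of 4 mice (limma, adjusted p = 0.0156). The call was lost under 4 of 20 alternatives, namely equal hybridisation controls, without LEC replicate 2, and without the arrays of high epithelial or high fibroblast signal (adjusted p = 0.0536 to 0.179). Under these 4 the difference was 3.07 to 3.36, against 3.45 in the limma fit as reported. Scarb2, a lysosomal receptor, was bright in both cell types (9.51 to 10.24 in LEC and 9.07 to 10.42 in BEC) and was not called (difference -0.28, adjusted p = 0.840). Mrc2, the relative of Mrc1 that takes up collagen, was above background on 1 LEC array and no BEC array and was not tested.

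**Figure D5:**
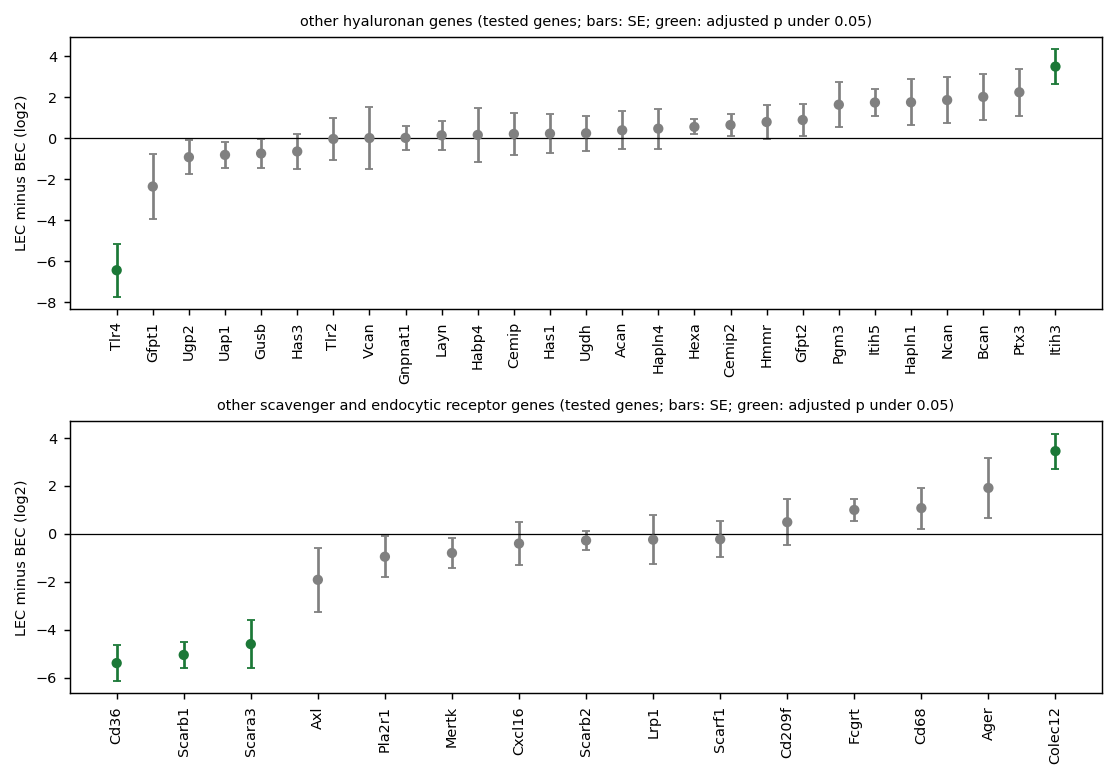
Difference LEC minus BEC in log2 units with its SE (y axis) for the tested genes (x axis) of the other hyaluronan list (27 genes, upper panel) and the other scavenger receptor list (15 genes, lower panel). Itih3 and Colec12 (green, above 0) and Tlr4, Cd36, Scarb1 and Scara3 (green, below 0) passed the test, and the other genes did not.

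Genes with the most similar profile were ranked by the root mean square difference (RMSD) from each member over the 8 arrays, after subtracting the mean of each gene, among 13251 genes. Genes picked this way share high and low arrays with the member by selection, so such likeness is no separate result. Closest to Lyve1 were Igfbp5, which encodes an insulin-like growth factor binding protein (RMSD 0.47 log2 units), the tenascin gene Tnxb (0.69) and the reelin gene Reln (0.78), where Lyve1 itself varied by 4.10 about its own mean. Igfbp5 read 12.74 to 13.18 in LEC and 3.71, 6.04, 6.97 and 5.35 in BEC, with the same array highest in BEC as for Lyve1 on 1453128_at. Closest to Mrc1 were the semaphorin gene Sema3a (0.55), Dtx1 (0.62) and the kinase gene Dapk1 (0.72), against 3.22 for Mrc1 itself. Sema3a was also lowest, among LEC arrays, in replicate 1 (7.90, against 9.56 to 10.43).

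Closest to Stab1 were the palmitoyltransferase gene Zdhhc2 (RMSD 0.32 log2 units), Fam102b (0.38) and the transcription factor gene Maff (0.43), against 1.48 for Stab1. Closest to Stab2 were the adaptor gene Shc1 (0.40), the tetraspanin gene Cd9 (0.43) and Gmfb (0.44), against 1.25. For Cd44 the closest were Rbm46os (0.73), the surface glycoprotein gene Cdcp1 (0.75) and Mpdu1 (0.80), against 1.95. Cdcp1 read 5.07, 0.84, 4.40 and 0.69 in LEC, where the second and last values were under background. By the way it was picked, it was high and low on the same LEC arrays as Cd44. The closest were Cdk8, Wdr3 and Tmbim1 for Hyal2 (0.25 each, against 0.41), Cmtr2, Blm and Fmo5 for Has2 (0.77 to 0.87, against 1.94) and Tspan9, Plaur and Akain1 for Msr1 (0.16 to 0.28, against 0.85).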

How the data were processed

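RNA of 8 sorted samples was amplified and hybridised to 1-colour arrays, per the labels' protocols. MAS5 appears, without a version, among the tools of the submitters' processing notes. The authors' deposited values are log2 signals. This was read from the values: the linear signals had the same 2% trimmed mean (100.04) on every array.

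Of the 45037 probe sets that are not controls, 34945 name 1 gene by the platform annotation (symbols updated through RefSeq), 932 name several and 9160 none. Samples were grouped by title. Probe sets above the 40th percentile of their array on at least 4 of 8 arrays entered limma 3.58.1 (R 4.3.3) (eBayes with an intensity trend, cell type as the only term, two-sided, Benjamini-Hochberg adjustment, called under 0.05), as 28838 probe sets and as 13259 genes, each by its brightest probe set by mean. The fits were tested on simulated data. The background of an array is the 95th percentile of 27 Bacillus subtilis control probe sets. The number of arrays limits the precision.

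The design pairs LEC and BEC by animal, and deviations of same-numbered arrays correlated at 0.142, 0.0776, 0.181 and 0.0510. The highest correlation with a differently numbered array was 0.0295 for mice 1 and 2 and 0.0747 for mice 3 and 4. For mouse 4 this was above the same-number value. The p-values measure the spread between animals together with amplification and array. Members and lists were chosen with earlier results of these data known. The genes named are all members, called genes of the 2 related lists (up to 5 in each direction), 3 nearest profiles per member and the markers. List genes named beside these (Has1, Has3, Cemip2, Layn, Hexa, Itih5, Ptx3, Scarb2 and Mrc2) were chosen after their values were seen. Alternatives were scaling, filter, background, trend, replicate block, choice of probe set and arrays left out. The arrays of high epithelial signal (LEC replicate 3, BEC replicates 3 and 4) and of high fibroblast signal (LEC replicates 2 and 4) were chosen after seeing the data.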

Additional observations from a re-analysis of the deposited data

Results flagged for a closer look

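Of 32 groups of 4 arrays checked (16 probe sets in both cell types), 3 held an array whose gap to its nearest neighbour took up most of the range of its group, and chance gives about 1 in 20. Lyve1 on 1453128_at was 14.23 in LEC replicate 1, above 13.44 to 13.53 in the other LEC arrays. Stab2 was 1.31 in BEC replicate 1, below 3.23 to 3.43 in the other BEC arrays and under background there. Cd44 on 1452483_a_at was 4.35 in BEC replicate 2, below 5.47 to 5.58 in the other BEC arrays.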

How the results depend on the processing

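Lyve1 and Mrc1 kept their direction and call under every alternative run, and Stab1 kept its direction and lost its call under the 3 alternatives given in the report. The replicate block (mouse) gave 534 genes (main 540) and 922 probe sets (main 954) and changed no member call. Of genes named from the related lists, it ended the call of Scara3. Without single arrays 352 to 556 genes and 650 to 951 probe sets were called, the lowest gene count without BEC replicate 2, while 3 member genes and 4 member probe sets stayed called in number. Without the arrays of high epithelial signal the counts were 216 genes and 323 probe sets, and without those of high fibroblast signal 310 genes and 519 probe sets, from fewer arrays. Scaling moved the median difference of all genes from 0.08 to -0.20 (equal medians) and -0.31 (equal hybridisation controls), and the split from 234 higher and 306 lower to 162 and 336, and to 123 and 280. Signs turned for uncalled members only, and none was called. Cd44 (1434376_at) was 0.16 with values raised to background, -1.41 to 0.84 without single arrays (0.30 and 0.84 without LEC replicates 2 and 4), and 2.33 without the arrays of high fibroblast signal, and Cd44 on 1452483_a_at was 0.36 and 1.78 in the first and last of these. Hyal2 was -0.20 and -0.31 under those scalings, -0.29 without the arrays of high epithelial signal, and -0.17 to 0.27 without single arrays (-0.17, -0.04 and -0.0089 without LEC replicate 3, LEC replicate 1 and BEC replicate 4). Has2 (1449169_at) was -0.031 with equal hybridisation controls, -0.82 without the arrays of high fibroblast signal, and -0.93 to 1.18 without single arrays (-0.93 and -0.13 without BEC replicate 4 and LEC replicate 2). The cause was not tested. The signal over background limits Has2, Stab2 and Msr1.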
